A study of Zea mays with 24 samples.

Results

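The transcripts described here are leaf-specific oxidoreductases and redox enzymes of maize. They were taken from the study's list of 919 transcripts detected in juvenile leaf of all 3 lines and in no anther or pollen sample. A transcript was kept where its product name held a word for a redox enzyme (oxidoreductase, dehydrogenase, reductase, oxidase, oxygenase, peroxidase, cytochrome P450, thioredoxin or glutathione) and no word for chloroplast, photosystem, ferredoxin or kinase. Of 46 names with such a word, 6 held an excluded word and 2 more were left out by accession, so 38 transcripts remained, and 34 of them had values among the 7900 probes with a value on the array. The members were chosen by the study's detection calls, which rest on the signal in each tissue, and by their names. Leaf specificity is therefore given and is not a finding.

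RNA was compared on 24 two-colour arrays of 60-mer probes. Each array set a sample of A619 or of the ND101/W23 hybrid against a sample of W23 from the same tissue, with 3 arrays for each line in each of 4 tissues (anthers of 1 mm, anthers of 1.5 mm, juvenile leaf and mature pollen). The plants called A619 were a derivative of the A619 inbred. ND101/W23 was the F1 hybrid from W23 pollen on ND101, so it carried a W23 genome beside that of ND101, and the W23 inbred carried the bz2 mutation, which blocks anthocyanin accumulation. All plants were grown in a common field and no treatment was applied. Leaf samples were fully expanded juvenile leaves of different plants, anthers were pooled within a tassel, and pollen was pooled within a plant. The same W23 sample served both lines on arrays of the same number, so the comparisons of A619 and of ND101/W23 with W23 share their controls.

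Redox enzymes move electrons between substrates and carriers such as NADPH, haem iron, flavin or glutathione. In a leaf they detoxify hydrogen peroxide formed beside photosynthesis, carry steps of photorespiration, and make hormones, sterols, pigments and defence compounds. Cytochrome P450 enzymes are membrane haem proteins that insert oxygen into small molecules, and plants have large families of them.

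The 38 transcripts fell into 7 cytochrome P450 enzymes, 10 glutathione, thioredoxin and peroxidase enzymes, 6 dehydrogenases, 6 oxidases and dioxygenases, 4 enzymes of isoprenoid, sterol and oxylipin synthesis, 4 other reductases, and 1 methyltransferase (TC272687) that the word oxygenase in its substrate's name had caught. The names are those of the best protein match. They were given with no qualifier for 5 transcripts, as a homologue for 4, as similar for 22 and as weakly similar for 7. The probe lay on the strand of the EST for 25 transcripts and on the opposite strand for 13. This position alone does not show whether a probe reads sense or antisense RNA of the named product. The study called probes antisense from protein matches and assembly orientation, which were not used for this split. The 4 transcripts with no value here were all of the opposite-strand kind: a naringenin dioxygenase-like, an iron/ascorbate oxidoreductase-like, an aldehyde oxidase-2 and a thioredoxin-like transcript (TC264158, TC274083, TC274748 and TC253727).

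All values are log2 ratios of the line over W23, and a ratio of 1 is 2-fold higher in the line. The labels and the study's design drawing name opposite dyes, so the direction was settled from ratios printed for ND101/W23 and carried to A619 through the shared W23 samples. A transcript was called where limma, fitted to the 6 arrays of a tissue, gave an adjusted p under 0.05 over all probes and its 3 ratios had the same sign. Each SE is that of this fit, which pools the spread of both lines' arrays, and n counts the arrays in the mean. It is not the SE of the 3 arrays of a line alone. The files hold ratios only, so the level of a tissue's own markers could not be checked. On the leaf arrays the median ratio of the study's pollen-specific list was -0.46 in A619 and -0.40 in ND101/W23 at replicate 3, and between -0.08 and -0.005 on the other leaf arrays. The median of the 1 mm anther-specific list was 0.31 and 0.27 on those replicate 3 arrays, against a range of -0.01 to 0.24 on the rest. Replicate 3 was also the leaf pair labelled with the dyes exchanged. A fit with a dye term was run as an alternative. It kept the 13 leaf calls of A619, the 1 of ND101/W23 and the 6 between the lines described below, and added calls to each. In leaf the term sets replicate 3 against replicates 1 and 2, so dye and replicate cannot be told apart. The part of tissue content was not tested.

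In juvenile leaf of A619, 13 of the 34 measured redox transcripts were called different from W23, 7 higher and 6 lower. The background was a call for 41.9% of all probes, 23.9% higher and 18.1% lower, so the share of redox transcripts called (38.2%) was near that of the array. Among the other leaf-specific transcripts 265 of 829 were called, or 32.0%. The 7 that were higher included 4 of the 7 cytochrome P450 enzymes, an oxo-phytodienoic acid reductase-like transcript and an NADP-dependent oxidoreductase, and the 6 that were lower included 2 peroxidases. With replicate 1 left out 7 transcripts were called, 4 higher and 3 lower. Within replicates 1 and 2, which share a dye orientation, 13 were called, but only 11 of the 13 calls above were kept. TC253726 and TC254969 were lost, and CF244696 and TC279162 were added as lower. The share of all probes in these fits with fewer arrays was not set beside these counts. Rank Products, the test named in the study's methods, called 4, against 4.19% of all probes. They were TC273973, TC251596 and TC267099 as higher and CF626959 as lower. The other 9 calls in A619 leaf were lost with Rank Products. Losses named below for single transcripts in A619 leaf are those under the remaining alternatives.

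**Figure D1:**
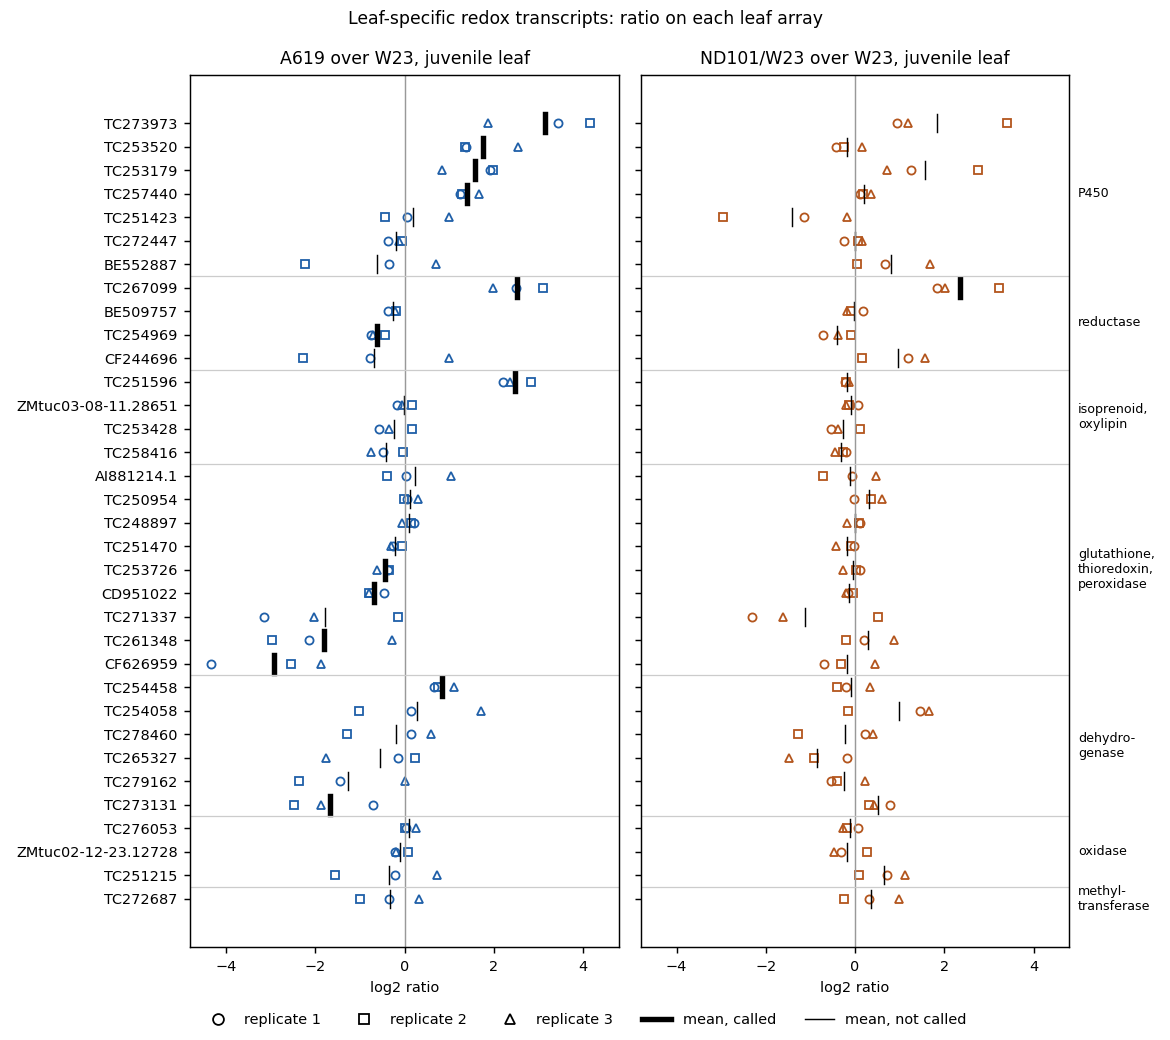
Log2 ratio over W23 of the 34 measured redox transcripts in juvenile leaf, with A619 on the left and ND101/W23 on the right. Each symbol is 1 array, the vertical bar is the mean of 3 arrays, and a thick bar marks a call by limma. In A619, 4 P450 transcripts have all arrays above 0 and CF626959 lies furthest to the left, while in ND101/W23 only TC267099 is called.

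The cytochrome P450 transcripts held the highest ratio of the whole group. TC273973, similar to CYP78A9, a P450 that promotes fruit and seed growth in Arabidopsis, had leaf ratios of 3.43, 4.16 and 1.86 in A619, against 0.93, 3.40 and 1.19 in ND101/W23. Every array of both lines was above W23, and the arrays of the 2 lines overlapped. The A619 mean was 3.15 ± 0.57 (SE, n = 3), an 8.88-fold excess over W23 (adjusted p = 0.00436, limma). The ND101/W23 mean of 1.84 was not called (adjusted p = 0.0876, limma), although Rank Products called it. The A619 call was lost without replicate 1.

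TC253520, weakly similar to CYP71E1, which in sorghum acts on an oxime in the synthesis of the cyanogenic glucoside dhurrin, had leaf ratios of 1.38, 1.35 and 2.54 in A619, against -0.42, -0.25 and 0.16 in ND101/W23. TC257440, weakly similar to CYP71D10, had 1.25, 1.29 and 1.67 in A619, against 0.10, 0.18 and 0.35 in ND101/W23. For both transcripts all A619 arrays lay above all ND101/W23 arrays, and the hybrid lay near W23. The A619 means were 1.76 ± 0.25 for TC253520 (adjusted p = 0.00166, limma) and 1.40 ± 0.13 for TC257440 (adjusted p = 0.000328, limma; SE, n = 3 each).

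TC253179, weakly similar to a cytochrome P450 of no stated family, had nearly equal means in the 2 lines. Its leaf ratios were 1.92, 1.99 and 0.83 in A619, against 1.25, 2.76 and 0.71 in ND101/W23, so all 6 arrays were above W23 and replicate 3 was the lowest in both lines. The means were 1.58 in A619 (adjusted p = 0.018, limma) and 1.57 in ND101/W23 (adjusted p = 0.053, limma), and the difference of 0.01 ± 0.56 (SE) between the lines leaves room for a gap in either direction. The call in A619 was lost without replicate 1 and after scaling of the arrays, which added a call in ND101/W23.

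The other 3 P450 transcripts were not called in A619, with means between -0.63 and 0.20. They were TC272447, CYP71C4, which makes indolin-2-one in the benzoxazinoid defence pathway of maize and was read on the opposite strand, TC251423, CYP72A16, and BE552887, similar to a rice P450. TC251423 had 0.05, -0.45 and 0.99 in A619, against -1.14, -2.95 and -0.17 in ND101/W23. Its ND101/W23 mean of -1.42 was the lowest of any redox transcript in that line and was not called (adjusted p = 0.121, limma), with replicate 2 standing apart from the other arrays.

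Among the reductases, TC267099 was the transcript called in both lines. It is similar to P2, an NADP-dependent oxidoreductase described in Arabidopsis. Its leaf ratios were 2.50, 3.09 and 1.97 in A619, against 1.84, 3.22 and 2.02 in ND101/W23, and every array was at or above 1.84. The means were 2.52 ± 0.31 in A619 (adjusted p = 0.000874, limma) and 2.36 ± 0.31 in ND101/W23 (adjusted p = 0.0122, limma; SE, n = 3 each), 5.74-fold and 5.13-fold over W23. The lines differed by 0.16 ± 0.43 (SE; adjusted p = 0.842, limma). Both comparisons rest on the same W23 leaf samples.

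TC254969, weakly similar to aldose reductase, which reduces sugars and other aldehydes, was read on the opposite strand and had -0.75, -0.43 and -0.70 in A619, against -0.72, -0.09 and -0.38 in ND101/W23. All 6 arrays were below W23 and the lines overlapped. The A619 mean of -0.63 ± 0.15 (SE, n = 3) was called (adjusted p = 0.0146, limma), and the call was lost without replicate 1, without replicate 3 and after scaling of the arrays. The other 2 reductases, CF244696 and BE509757, had A619 means of -0.68 and -0.26 and were not called.

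TC251596, similar to the reductase that acts on 12-oxo-phytodienoic acid, a precursor of jasmonic acid, separated the lines on every array. Its leaf ratios were 2.20, 2.84 and 2.36 in A619, against -0.22, -0.20 and -0.13 in ND101/W23. The A619 arrays were all more than 2 units above W23 while the hybrid arrays lay within 0.22 of W23. The A619 mean of 2.47 ± 0.15 (SE, n = 3), or 5.53-fold, had the lowest adjusted p of the redox transcripts in leaf (0.000119, limma), and it was called under all 11 alternatives tried. The other 3 transcripts of its group belong to the mevalonate and sterol routes, 3-hydroxy-3-methylglutaryl-CoA reductase (TC253428), sterol delta-7 reductase (TC258416) and a sterol 4-alpha-methyl-oxidase. Their means lay between -0.42 and -0.02 in A619 and between -0.31 and -0.09 in ND101/W23, with no call.

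Of 9 measured glutathione, thioredoxin and peroxidase transcripts 4 were lower in A619 leaf (44.4%, against 18.1% of all probes) and none was higher (23.9% of all probes). Of these 4 only TC261348 had a probe on the strand of the EST. The count therefore does not show lower RNA for the enzyme class. CF626959, similar to a rice peroxidase and read on the opposite strand, had -4.34, -2.55 and -1.88 in A619, against -0.69, -0.32 and 0.44 in ND101/W23. The 2 lines did not overlap. Its A619 mean of -2.92 ± 0.44 (SE, n = 3) was the lowest of the redox transcripts, 7.59-fold under W23 (adjusted p = 0.00217, limma), and the ND101/W23 mean of -0.19 was not called. The SD of the 3 arrays was 1.27 in A619, against 0.58 in ND101/W23.

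TC261348, a homologue of thylakoid-bound ascorbate peroxidase, which removes hydrogen peroxide at the photosynthetic membrane, had -2.14, -2.98 and -0.28 in A619, against 0.20, -0.20 and 0.88 in ND101/W23. The A619 arrays were all below W23, but replicate 3 was close to it. The mean of -1.80 ± 0.47 (SE, n = 3) was called (adjusted p = 0.0206, limma), and the call was lost without replicate 1, without replicate 2 and with a fit to the 3 A619 arrays alone. It was kept without replicate 3. The SD of the 3 arrays was 1.38 in A619, against 0.55 in ND101/W23.

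CD951022, similar to a rice glutathione transferase, an enzyme class that couples glutathione to reactive compounds, had -0.47, -0.81 and -0.80 in A619, against -0.16, -0.04 and -0.21 in ND101/W23. TC253726, a thioredoxin-like transcript, had -0.38, -0.34 and -0.61 in A619, against 0.10, 0.02 and -0.27 in ND101/W23. Both were read on the opposite strand, and in both the A619 arrays lay below all ND101/W23 arrays. The A619 means were -0.69 ± 0.12 for CD951022 (adjusted p = 0.00381, limma) and -0.44 ± 0.13 for TC253726 (adjusted p = 0.0282, limma; SE, n = 3 each). The call of TC253726 was lost whichever replicate was left out, after scaling of the arrays and with a fit to the 3 A619 arrays alone.

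The other 5 of this group were not called. TC271337, similar to a peroxidase precursor and read on the opposite strand, had -3.16, -0.14 and -2.03 in A619, against -2.30, 0.52 and -1.61 in ND101/W23. Replicate 2 stood near or above W23 in both lines while the other arrays lay far below, and the A619 mean of -1.78 missed the threshold (adjusted p = 0.0701, limma). The remaining 4 were 2 glutathione transferases (AI881214.1, GST 10, and TC250954, GST 18) and 2 phospholipid hydroperoxide glutathione peroxidases (TC251470 and TC248897), with A619 means between -0.21 and 0.23.

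Among 6 dehydrogenases 1 was higher and 1 was lower in A619 leaf. TC254458, weakly similar to the electron-transferring-flavoprotein dehydrogenase that passes electrons to ubiquinone in mitochondria, had 0.65, 0.75 and 1.11 in A619, against -0.20, -0.41 and 0.33 in ND101/W23. TC273131, weakly similar to class III alcohol dehydrogenase, which oxidises the glutathione adduct of formaldehyde, had -0.70, -2.48 and -1.87 in A619, against 0.79, 0.31 and 0.42 in ND101/W23. In TC273131 the lines lay on opposite sides of W23 on every array. The A619 means were 0.84 ± 0.17 for TC254458 (adjusted p = 0.00793, limma) and -1.68 ± 0.31 for TC273131 (adjusted p = 0.00474, limma; SE, n = 3 each). The call of TC254458 was lost without replicate 1.

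The 4 dehydrogenases that were not called had wide replicate spreads. TC254058, similar to the peroxisomal hydroxypyruvate reductase of photorespiration, had 0.15, -1.03 and 1.71 in A619, against 1.45, -0.16 and 1.66 in ND101/W23. TC279162, similar to glycerol-3-phosphate dehydrogenase, had -1.45, -2.36 and 0.01 in A619, and its adjusted p of 0.0427 by limma did not make a call because 1 ratio was above 0. The others were TC278460, a glycerol-3-phosphate dehydrogenase-like transcript, and TC265327, dihydrolipoamide dehydrogenase, a subunit of mitochondrial complexes that include glycine decarboxylase.

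None of the 3 measured oxidases was called in A619 leaf. TC251215, protoporphyrinogen IX oxidase, which stands before the branch of haem and chlorophyll synthesis, had -0.21, -1.57 and 0.72 in A619, against 0.71, 0.09 and 1.13 in ND101/W23. In this enzyme too replicate 2 was the lowest and replicate 3 the highest in both lines. The polyamine oxidase-like and aldehyde oxidase-2-like (TC276053) transcripts had A619 means of -0.11 and 0.10. The methyltransferase TC272687 had an A619 mean of -0.34 and was not called.

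By strand, the 9 measured transcripts with an opposite-strand probe held 4 of the 6 lower calls in A619 leaf and no higher call. Thus 44.4% of these few were called lower, against 18.1% of all probes, and 23.9% of all probes were called higher. CF626959, CD951022 and TC253726 are among these 4 and also among the lower calls of the glutathione, thioredoxin and peroxidase group. The 25 with a probe on the strand of the EST held all 7 higher calls and 2 lower ones. For TC253726, read on the opposite strand, the study pairs this probe with a sense probe as a sense and antisense pair.

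In juvenile leaf of ND101/W23 the call of TC267099 was 1 of 34, against 10.3% of all probes in either direction and 5.85% called higher, and against 80 of 829 other leaf-specific transcripts (9.65%). Without adjustment 5 of the redox transcripts had p under 0.05 (14.7%, against 28.9% of all probes). The call was lost without replicate 1. Rank Products called 3 transcripts (2.47% of all probes), which were TC253179, TC273973 and TC267099. With the replicate number as a block, which takes out what the 2 arrays of a shared W23 sample have in common, 9 were called, against 24.2% of all probes. The error of this fit leaves out the spread of the W23 samples. The p-values of these 9 calls are therefore too small for a test of the line against W23. Those higher in ND101/W23 were TC267099, TC273973, TC253179, CF244696, BE552887 and TC251215, and those lower were TC251423, TC265327 and TC254969.

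In A619 leaf the median ratio was -0.20 over the redox transcripts, -0.19 over the other leaf-specific transcripts and -0.03 over all probes. In ND101/W23 leaf it was -0.09 over the redox transcripts, -0.10 over the other leaf-specific ones and -0.01 over all probes. In A619, 21 of the 34 means were below 0. Without replicate 2 the A619 median was 0.03. Their replicates spread more widely than those of the array as a whole. The median SD of 3 leaf arrays in A619 was 0.61 for the redox transcripts and 0.28 for all probes, and in ND101/W23 it was 0.39 for the redox transcripts and 0.23 for all probes. The lowest and highest arrays were more than 1 unit apart for 18 of 34 redox transcripts in A619 (52.9%, against 20.3% of all probes) and for 15 of 34 in ND101/W23 (44.1%, against 11.99%).

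**Figure D2:**
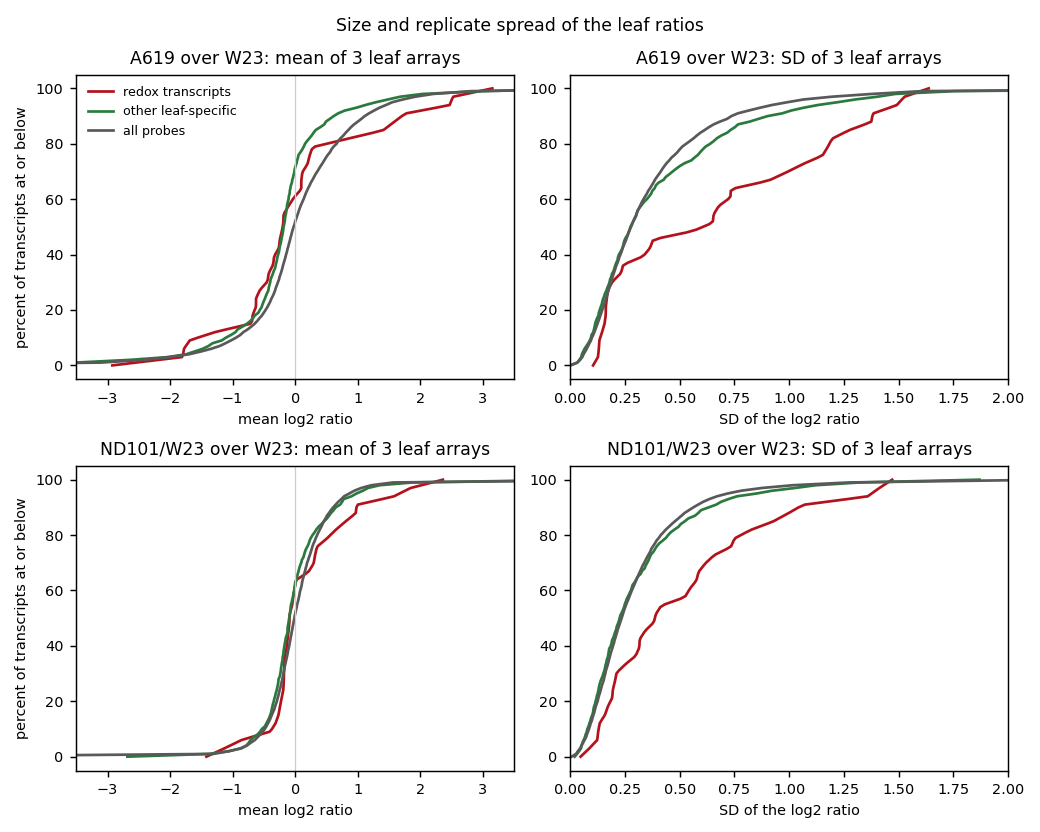
Cumulative percent of transcripts by mean log2 ratio (left) and by SD of 3 leaf arrays (right), with A619 above and ND101/W23 below. Lines show the 34 redox transcripts, the 829 other leaf-specific transcripts and all probes. The curves of the means lie close together near the median, while the SD curve of the redox transcripts lies to the right of the other 2 in both lines, with medians of 0.61 in A619, against 0.39 in ND101/W23.

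No single order of the replicates held for all enzymes. On the A619 leaf arrays replicate 2 was the lowest of the 3 for 15 of 34 transcripts and the highest for 15, and replicate 3 was the highest for 16 (47.1%, against 35.4% of all probes). On the ND101/W23 arrays the lowest was replicate 1 for 12, replicate 2 for 11 and replicate 3 for 11, and replicate 3 was the highest for 17 (50.0%, against 31.3% of all probes). Hydroxypyruvate reductase, protoporphyrinogen IX oxidase, ascorbate peroxidase, the P450 BE552887 and the NADPH-dependent reductase CF244696 had replicate 2 lowest and replicate 3 highest in both lines. So did AI881214.1, TC251423, TC278460 and TC272687. Replicate 2 was the lowest in both lines for 10 of 34 transcripts (29.4%, against 18.6% of all probes). Replicate 3 was the highest in both lines for 15 (44.1%, against 19.4% of all probes). CF244696 had -0.77, -2.27 and 1.00 in A619, against 1.18, 0.15 and 1.57 in ND101/W23. BE552887 had -0.34, -2.24 and 0.70 in A619, against 0.67, 0.05 and 1.68 in ND101/W23. Arrays of the same number share a W23 sample, and a shift of that sample cannot be told apart from a like shift of both lines.

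The 6 leaf-specific redox names set aside for a chloroplast, photosystem, ferredoxin or kinase word moved on the same arrays. Their median ratio in A619 leaf was -1.38, -1.64 and -0.14 on replicates 1, 2 and 3. Of the 6, 4 were called lower than W23 (66.7%, against 18.1% of all probes) and none higher (23.9% of all probes). In ND101/W23 the medians were -0.15, -0.53 and -0.09 with no call, against 10.3% of all probes. Replicate 3 had the highest median in both lines. In ND101/W23 it was close to that of replicate 1, with SDs over the 6 transcripts of 0.90 on replicate 1 and 0.98 on replicate 3. By comparison, 11 transcripts with a redox word on the anther and pollen lists had leaf medians between -0.06 and 0.11 on every array. In A619 leaf 3 of these 11 were called higher (27.3%), near the 23.9% of all probes.

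A619 was then compared with ND101/W23 in leaf directly, to test the difference between the lines. Of 34 redox transcripts 6 were called, 4 higher and 2 lower in A619, against 21.0% of all probes (11.8% higher and 9.16% lower). Among the other leaf-specific transcripts 124 of 829 were called. The 4 that were higher in A619 were TC251596 (a difference of 2.65 ± 0.21, adjusted p = 0.00125), TC253520 (1.93 ± 0.36, adjusted p = 0.0114), TC257440 (1.19 ± 0.18, adjusted p = 0.00622) and TC254458 (0.93 ± 0.24, adjusted p = 0.0377), all by limma with SE. The 2 that were lower were CF626959 (-2.73 ± 0.63, adjusted p = 0.0239) and TC273131 (-2.19 ± 0.44, adjusted p = 0.0145), again by limma. For these 6 the hybrid lay between -0.19 and 0.51 of W23.

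The arrays of the 2 lines did not overlap for 9 of the 34, against 38.5% of all probes. They were the 6 called ones with CD951022, TC253726 and TC261348. No call was left without replicate 1, and 2 were left without replicate 2 (TC251596 and TC257440). Scaling of the arrays ended the calls of CF626959 and TC254458. With the replicate number as a block, which sets each A619 array against the hybrid array of the same W23 sample, 15 transcripts were called, among them the 6 above, against 33.1% of all probes. That fit added TC273973 and TC251423 as higher in A619, and TC261348, CF244696, BE552887, TC251215, TC272687, TC271337 and CD951022 as lower.

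The paired differences show what the block changes. For CF244696 they were -1.95, -2.42 and -0.57, for TC251423 1.19, 2.50 and 1.16, and for the methyltransferase TC272687 -0.65, -0.74 and -0.66. Each had 1 sign on all 3 pairs, while its arrays within a line spanned more than 1 unit. For 22 of the 34 transcripts the 3 differences had 1 sign, against 63.4% of all probes.

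**Figure D3:**
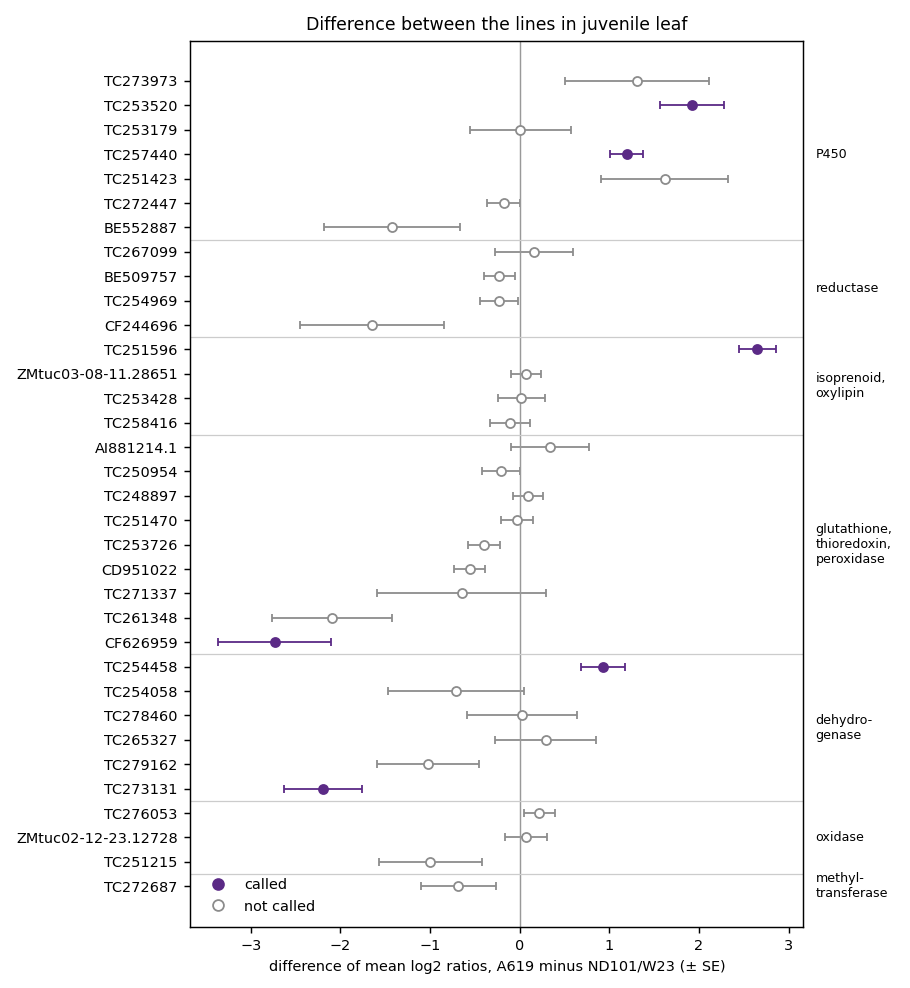
Difference between the mean leaf log2 ratios of A619 and ND101/W23 for the 34 redox transcripts, as A619 minus ND101/W23. Bars are the SE of the limma fit that does not pair the arrays by W23 sample. Filled points are the 6 called differences, with TC251596 furthest to the right at 2.65 and CF626959 furthest to the left at -2.73.

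In anthers and pollen most of the ratios were close to W23, and the signals behind them were not used here. Means within 0.50 of W23 were found for 32 of 34 transcripts in 1 mm anthers of A619 and for 32 in those of ND101/W23, and for 28 in 1.5 mm anthers of A619 and 31 in those of ND101/W23. The study lists them as undetected there, so a ratio near 0 describes signals under its threshold and does not show equal expression. No redox transcript was called in 1 mm anthers of A619 or ND101/W23 (4.14% and 7.05% of all probes), in mature pollen of A619 or ND101/W23 (1.53% and 0.937%), or in 1.5 mm anthers of ND101/W23 (3.96%). In mature pollen all 34 means were within 0.50 of W23 in both lines.

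In 1.5 mm anthers of A619, 3 of 34 redox transcripts were called, 1 higher and 2 lower, against 20.3% of all probes (8.67% higher and 11.6% lower). AI881214.1, similar to GST 10 and the only one of the 38 with a gene in the platform's annotation (LOC541828), had 0.99, 1.44 and 1.60 in A619, against 0.30, 1.13 and 0.73 in ND101/W23 (A619 mean 1.34, adjusted p = 0.00515, limma). In 1 mm anthers it had 1.03, 1.26 and 0.97 in A619, against -0.26, 0.39 and 1.46 in ND101/W23. All 6 A619 anther arrays were thus near or above 1, although its A619 leaf mean was 0.23.

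CD951022, the glutathione transferase that was lower in A619 leaf, had -1.16, -0.97 and -1.16 in 1.5 mm anthers of A619 and -0.35, 0.01 and -0.84 in those of ND101/W23 (A619 mean -1.10, adjusted p = 0.00682, limma). In 1 mm anthers of A619 its ratios were 0.71, -0.58 and -0.05, with no common sign. TC278460, the glycerol-3-phosphate dehydrogenase-like transcript, had -1.18, -0.66 and -0.96 in 1.5 mm anthers of A619 and -0.36, -0.21 and -0.19 in those of ND101/W23 (A619 mean -0.93, adjusted p = 0.00475, limma). None of the 3 calls was left without replicate 3, 1 was left without replicate 1, and none was made by Rank Products. With the replicate block 10 calls were made over the 6 comparisons in anthers and pollen, with 34 redox transcripts tested in each comparison. Over all probes 4502 of 47399 tests summed over the 6 comparisons were called (9.50%). The 10 calls are thus not out of 34, and their share of the summed tests was below that of all probes. For the 10 calls too the error leaves out the spread of the W23 samples.

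**Figure D4:**
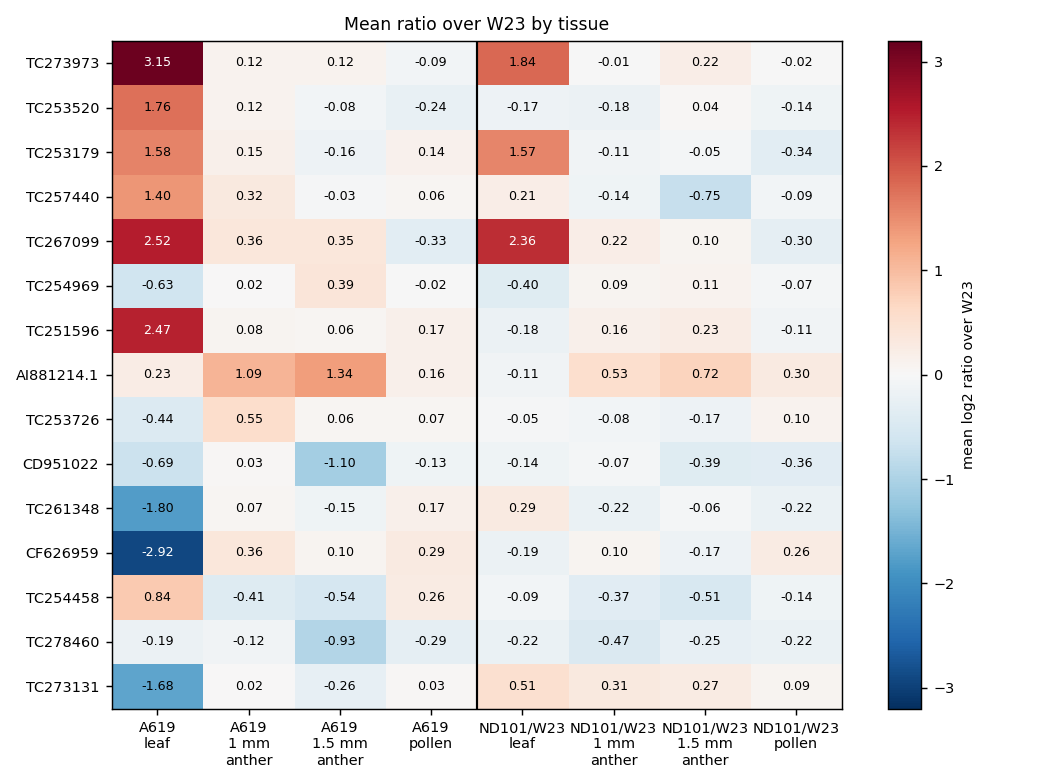
Mean log2 ratio over W23 of the 15 redox transcripts called in leaf or in 1.5 mm anthers, in each tissue of A619 (left of the black line) and ND101/W23 (right of it). Colour and printed value give the mean of 3 arrays. Means more than 1 unit from W23 stand in the leaf columns of both lines, such as TC273973 with 3.15 in A619 and 1.84 in ND101/W23, and in anthers of A619 for AI881214.1 (1.09 and 1.34) and CD951022 (-1.10).

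The leaf ratios were also set against the mean of both anther stages within each line. The transcripts were chosen as detected in leaf and undetected in anthers, so the anther ratios come from signals under the study's threshold and the difference largely restates the leaf ratio. It is given as a description and not as a test of tissue. In A619 the difference passed the threshold for 15 of 34 redox transcripts, with the ratio higher in leaf for 7 and lower for 8, where 42.5% of all probes passed (24.0% higher and 18.6% lower). The 7 higher were the 7 called higher in leaf, with differences from 1.26 for TC257440 and 1.31 for TC254458 up to 3.03 for TC273973. Of the 8 lower, CF626959 differed most, by -3.15. The peroxidase TC271337, with -1.97, and sterol delta-7 reductase TC258416, with -0.46, passed here but were not called against W23 in leaf alone. The SE of this fit pools the spread of all tissues of the line. TC271337 had an SD of 1.53 in A619 leaf and of 0.37 and 0.21 in the anther stages. Its SE was 0.51 here and 0.66 in the leaf fit, so its pass is no added evidence for leaf. AI881214.1, the GST 10-like transcript, was an exception to the restating of the leaf ratio. Its difference of -0.98 came from A619 means of 1.09 and 1.34 in the anther stages, while its leaf mean was 0.23.

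In ND101/W23 the difference passed for 4 of 34, all with the ratio higher in leaf, where 10.0% of all probes passed (6.53% higher). They were TC267099 with 2.20, TC273973 with 1.74, TC253179 with 1.65 and protoporphyrinogen IX oxidase TC251215 with 0.79. Without replicate 1 in A619, 7 differences passed, and in ND101/W23 1 passed without replicate 1 or without replicate 3 and 8 without replicate 2.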

How the data were processed

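The deposited table holds log2 ratios of a line over W23 for 7900 probes, 7884 to 7900 per array. The authors scanned the arrays with Agilent Feature Extraction, removed saturated spots, kept probes with signal over a negative-control threshold, and normalized by rank-invariant probes and loess with scaling among triplicates. Intensities, signal over background and scan dates were not used here. The number of arrays limits precision. Array medians lay between -0.04 and 0.04.

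The study's tissue lists were joined to the table by probe number minus 3. The direction of the ratios was checked on 36 ratios that the study prints at or over 0.5 for ND101/W23, and 36 had the sign of the deposited mean. For A619 it rests on the shared W23 samples, since the labels and the design drawing name opposite dyes. Arrays of the same number share a W23 sample per the study's methods, and their deviations from the line means correlated between 0.20 and 0.65 over all probes (12 pairs), against -0.58 to 0.22 for different numbers (24 pairs), so the numbers pair the arrays. The leaf replicate 3 arrays had exchanged dyes.

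limma 3.58.1 (R 4.3.3) was fitted per tissue to 6 arrays with a mean per line, or per line to 12 arrays for leaf minus the mean of the anther stages. P-values were adjusted by Benjamini-Hochberg over all probes at 0.05, and calls against W23 also needed 3 ratios of 1 sign. The test was checked on simulated data with independent errors on every array and few changed probes. That check does not cover arrays paired by a W23 sample, or the large share of probes called in A619 leaf. Alternatives were median centring, scaling to equal spread, complete probes, a fit to 3 arrays, a dye term, a replicate block, Rank Products with 100 permutations, no sign requirement, and leaving out each replicate. Transcripts called in leaf were given per array, ordered by role, and the others as ranges or where their spread was described. The members, lists and roles were chosen with earlier results of these data known. No sequence is printed. Summaries and figures came from Python 3.11.15 with matplotlib 3.10.9, pandas 2.3.3 and, for quantiles, numpy 2.4.6.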

Additional observations from a re-analysis of the deposited data

Results flagged for a closer look

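Differences between lines are given here by limma on the log2 scale, followed by differences between tissues as a description. In leaf, A619 minus ND101/W23 was 2.65 for TC251596, 1.93 for TC253520, 1.19 for TC257440, 0.93 for TC254458, -2.19 for TC273131 and -2.73 for CF626959.

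Within A619, leaf minus anthers was 3.03 for TC273973, 2.40 for TC251596, 2.16 for TC267099, 1.74 for TC253520, 1.58 for TC253179, 1.31 for TC254458 and 1.26 for TC257440. It was -0.46 for TC258416, -0.75 for TC253726, -0.83 for TC254969, -0.98 for AI881214.1, -1.56 for TC273131, -1.76 for TC261348, -1.97 for TC271337 and -3.15 for CF626959. Within ND101/W23, leaf minus anthers was 2.20 for TC267099, 1.74 for TC273973, 1.65 for TC253179 and 0.79 for TC251215. These transcripts were chosen as undetected in anthers, so the differences between tissues draw on what the choice used and are no test of tissue. With 3 arrays per group no search for single outlying arrays was made.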

How the results depend on the processing

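None of 368 recomputed values of single called transcripts changed sign, and 299 kept their call. The count called in A619 leaf (13) was 4 with Rank Products and 7 to 13 without 1 replicate. The count in ND101/W23 leaf (1) was 3 after scaling, 3 with a dye term, 3 with Rank Products, 9 with the replicate block, and 0 to 2 without 1 replicate. The count for A619 against ND101/W23 in leaf (6) was 15 with the replicate block and 0 to 7 without 1 replicate. Over the 6 comparisons in anthers and pollen the count (3) was 5 after scaling, 5 with fits to 3 arrays, 5 with a dye term, 10 with the replicate block, 1 with Rank Products, and 0 to 8 without 1 replicate. For leaf minus anthers it was 7 to 14 without 1 replicate in A619 (15) and 1 to 8 in ND101/W23 (4). The cause of these changes was not tested. The counts without 1 replicate rest on fewer arrays, and the share of all probes was not set beside them. Median centring, complete probes and dropping the sign requirement left every count within 1.5 times, as did the replicate block for the counts not named with it. In the fits of a line against W23 the block also takes the spread of the shared W23 samples out of the error. Each group has 3 arrays and the signals behind the ratios were not used here, so what depth limits was not measured.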
